A study of Mus musculus with 6 samples.

Results

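The genes that carry calcium across the membranes of the oocyte, or that sense how full its calcium store is, were read out in fully-grown germinal vesicle (GV) oocytes from conditional Uba3 knockouts (Uba3 cKO) and from controls. Members were chosen by symbol: the IP3 receptors (Itpr), ryanodine receptors (Ryr), store sensors (Stim), store-operated channels (Orai), calcium pumps (Atp2a, Atp2b, Atp2c), TRPC, TRPM and TRPV channels, and the alpha1, alpha2delta and beta subunits of voltage-gated calcium channels (Cacna and Cacnb). The rule found 58 genes in 13 subfamilies among 28738 rows of the deposited table. Uba3 is the catalytic part of the dimer that activates NEDD8, which cells attach to cullins and other proteins. Each group had 3 libraries, Uba3 cKO and control, each from a pool of about 150 oocytes, and both groups had the strain label C57/Bl6/N;129SvEv7. The sources used here do not give the Cre driver, the deleted part of Uba3, the alleles of the control mice, their ages or the number of animals behind a pool.

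A GV oocyte waits in meiotic prophase and fills its endoplasmic reticulum (ER) with calcium before fertilization. The sperm brings a phospholipase C that makes IP3, IP3 opens the IP3 receptor of the ER, and the calcium released comes in repeated waves that activate the egg. SERCA pumps refill the ER, plasma membrane pumps push calcium out, and influx through channels of the plasma membrane keeps the waves going. In mouse eggs, TRPM7 and the T-type channel Cav3.2 (Cacna1h) are known routes of this influx, and TRPV3 carries the strontium used to activate eggs without sperm.

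Values are on the log2 scale of the authors' normalized table, which holds no read counts, and sequencing depth is therefore unknown. Uba3 was lower in every Uba3 cKO library, with 10.03, 10.16 and 10.36 against 11.37, 11.46 and 11.34 in control (log2 difference -1.21, SE 0.10, adjusted p = 2.07e-05 in limma). Library pairs correlated at 0.997 to 0.998 within groups and 0.995 to 0.997 across groups. All 11 oocyte markers were measured, and the sum of their linear values was 18.59 to 18.73 on the log2 scale in Uba3 cKO and 18.76 to 18.97 in control libraries, with 2 called lower. The same sum for 15 theca, stroma and luteal markers was 11.42 to 11.77 in Uba3 cKO and 11.91 to 12.55 in control libraries, and 7 of them were called lower. For 16 granulosa and cumulus markers it was 14.33 to 14.61 in Uba3 cKO and 14.44 to 14.98 in control libraries, with 2 called higher and 2 lower. For 9 blood and immune markers the sums were 9.09 to 9.21 in Uba3 cKO and 9.21 to 9.46 in control libraries (2 called lower), and for 8 endothelial markers they were 11.89 to 12.07 in Uba3 cKO and 11.86 to 11.99 in control libraries (1 called lower). Of all tested genes, 2.5% were called lower and 5.64% higher in Uba3 cKO. Over all genes of each list found in the table, those below the level filter described next included, the lowest averaged 8.47 (oocyte), 1.41 (theca, stroma and luteal), 4.78 (granulosa and cumulus), 2.20 (blood and immune) and 3.99 (endothelial) on the log2 scale. Linear values were summed, so the highest genes of a list weigh most in its sum. In Uba3 cKO and control the highest averaged 16.8 and 17.05 (Bmp15), 10.3 and 10.95 (Hsd3b1), 12.02 and 12.42 (Inha). C1qb averaged 7.97 and 8.32 and Pecam1 11.3 and 11.3, while Ptprc (3.93 and 3.87) and Emcn (4.0 and 3.99) of the same lists lay far lower. Transcripts listed as markers of other ovarian cells were thus measured in the pools. In such bulk samples fewer cells of a type and less RNA per cell cannot be told apart.

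Of the 58 genes, 45 passed the level filter, 10 or more after the log2 value was turned back into a linear one, in at least 3 libraries. The filter level was reached in all 6 libraries by 43 of them, in 4 libraries by Orai2 and in 3 by Trpm1. The 13 genes that did not pass lay between 0.48 and 3.38 on the log2 scale in every library, and their group means differed by at most 0.05. They were the SERCA pumps Atp2a1 and Atp2a3, the plasma membrane pump Atp2b2, the alpha1 subunits Cacna1f and Cacna1s, Cacna2d4, Cacnb1, Trpm2, Trpm5, Trpm8, Trpv1, Trpv5 and Trpv6. Several of these have their best-known roles in muscle, retina, sensory neurons or kidney.

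Of the 45 tested genes, 6 were called in Uba3 cKO oocytes at an adjusted p under 0.05 in limma. Trpc5, Trpv3, Cacnb2, Stim2 and Trpm6 rose, and Trpc4 fell. These are 13.3% of the tested members, where 8.14% of all 17450 tested genes were called. By direction, 11.1% of the members rose against 5.64% of all genes, and 2.22% fell against 2.5% of all genes. The median log2 difference was -0.01 over the members and -0.01 over all tested genes, and the median absolute difference was 0.11 over the members and 0.10 over all genes. Groups did not overlap for 14 members, which is 31.1% of them against 27.9% of all tested genes. In 8 of these Uba3 cKO was higher (15.1% of all genes) and in 6 it was lower (12.8% of all genes). An unadjusted p under 0.05 was found for 14 members, where 22.8% of all tested genes had one. The other 39 members were not called, and the half-width of the 95% interval had a median of 0.21 over the members.

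Promoter windows of 4 of the called genes are shown because they belong to the largest rise, to the fall in the same subfamily, and to the rises of the strontium-permeable channel and of the store sensor. Each window runs from 250 bases before to 50 bases after the annotated start in RefSeq (build GRCm38.p6), is printed 5′ to 3′ on the gene's strand, and has in capitals every match, on either strand, to 1 of 5 motifs. They are TATAAA of the TATA box, the CCAAT box bound by NF-Y, the Sp1 core GGGCGG, the E-box CACGTG, and TAATTG as a core that many homeodomain factors bind.
Trpc5 (chrX:144688131-144688430, minus strand): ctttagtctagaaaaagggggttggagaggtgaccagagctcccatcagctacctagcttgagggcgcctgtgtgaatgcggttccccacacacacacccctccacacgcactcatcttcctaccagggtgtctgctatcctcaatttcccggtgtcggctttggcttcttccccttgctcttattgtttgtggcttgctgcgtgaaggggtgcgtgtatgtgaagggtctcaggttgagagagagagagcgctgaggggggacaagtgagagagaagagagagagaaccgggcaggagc
Trpc4 (chr3:54155807-54156106, plus strand): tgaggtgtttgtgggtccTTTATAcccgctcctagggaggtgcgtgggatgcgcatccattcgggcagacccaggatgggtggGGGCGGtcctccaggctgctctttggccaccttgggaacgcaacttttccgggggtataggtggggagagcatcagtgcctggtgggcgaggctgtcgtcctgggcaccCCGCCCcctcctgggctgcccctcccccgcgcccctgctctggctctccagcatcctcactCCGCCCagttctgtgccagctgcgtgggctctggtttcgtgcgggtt
Trpv3 (chr11:73267270-73267569, plus strand): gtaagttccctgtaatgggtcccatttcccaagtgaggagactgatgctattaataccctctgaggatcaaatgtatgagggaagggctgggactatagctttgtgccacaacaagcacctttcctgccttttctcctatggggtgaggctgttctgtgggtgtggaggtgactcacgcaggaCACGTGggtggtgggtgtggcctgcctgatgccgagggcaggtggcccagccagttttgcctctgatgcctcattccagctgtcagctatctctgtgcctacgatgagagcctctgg
Stim2 (chr5:53998273-53998572, plus strand): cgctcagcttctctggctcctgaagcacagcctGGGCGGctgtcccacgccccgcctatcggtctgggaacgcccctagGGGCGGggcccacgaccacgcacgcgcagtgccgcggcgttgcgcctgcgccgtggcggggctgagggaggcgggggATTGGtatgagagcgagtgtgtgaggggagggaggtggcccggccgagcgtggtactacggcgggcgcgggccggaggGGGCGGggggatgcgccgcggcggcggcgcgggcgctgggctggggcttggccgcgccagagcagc
The windows differed in composition. The Stim2 window held 39 CpG dinucleotides, more than 95.6% of the 32851 windows in the table, while those of Trpc4, Trpc5 and Trpv3 held 16, 9 and 4, and the median window held 7. GGGCGG stood 3 times in the Stim2 window and 3 times in the Trpc4 window, and 35.7% of all windows hold it. The Stim2 window also held 1 CCAAT (37.4% of all windows), the Trpc4 window 1 TATAAA (13.6%) and the Trpv3 window 1 CACGTG (7.15%), while the Trpc5 window held none of the 5 motifs. The TATAAA match of Trpc4 reads on the opposite strand and lies near the 5′ end of its window, far from the annotated start. TAATTG, which 8.0% of all windows hold, was in none of the 4. No matches overlapped each other, and which start the oocyte uses was not measured. RefSeq windows were found for 47 of the 58 genes.

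Levels of different genes were compared per length, as the linear value per kb of the longest annotated transcript. Pumps of the Golgi and ER and the main ER release channel stood highest. Atp2c1, the calcium and manganese pump of the Golgi, had a mean of 4080 per kb in Uba3 cKO and 4190 per kb in control oocytes. Atp2a2, the SERCA pump of most tissues, followed with 1940 and 2110 per kb in Uba3 cKO and control oocytes, and Itpr1 with 1070 and 888 per kb. The next 3 were the plasma membrane pump Atp2b1 (801 in Uba3 cKO, 750 in control), the channel kinase Trpm7 (685 and 687) and the store-operated channel Orai1 (591 and 731). Below them came Stim2 (415 and 320), Itpr2 (328 and 374) and Cacna1h (262 and 224). These levels span over 3 orders of magnitude down to Trpm1 at 1.75 and 1.81 per kb in Uba3 cKO and control oocytes. The first 5 places kept their order when the mean transcript length was used. Shares within families, given below, were computed with the longest transcript only and depend on that choice.

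**Figure D1:**
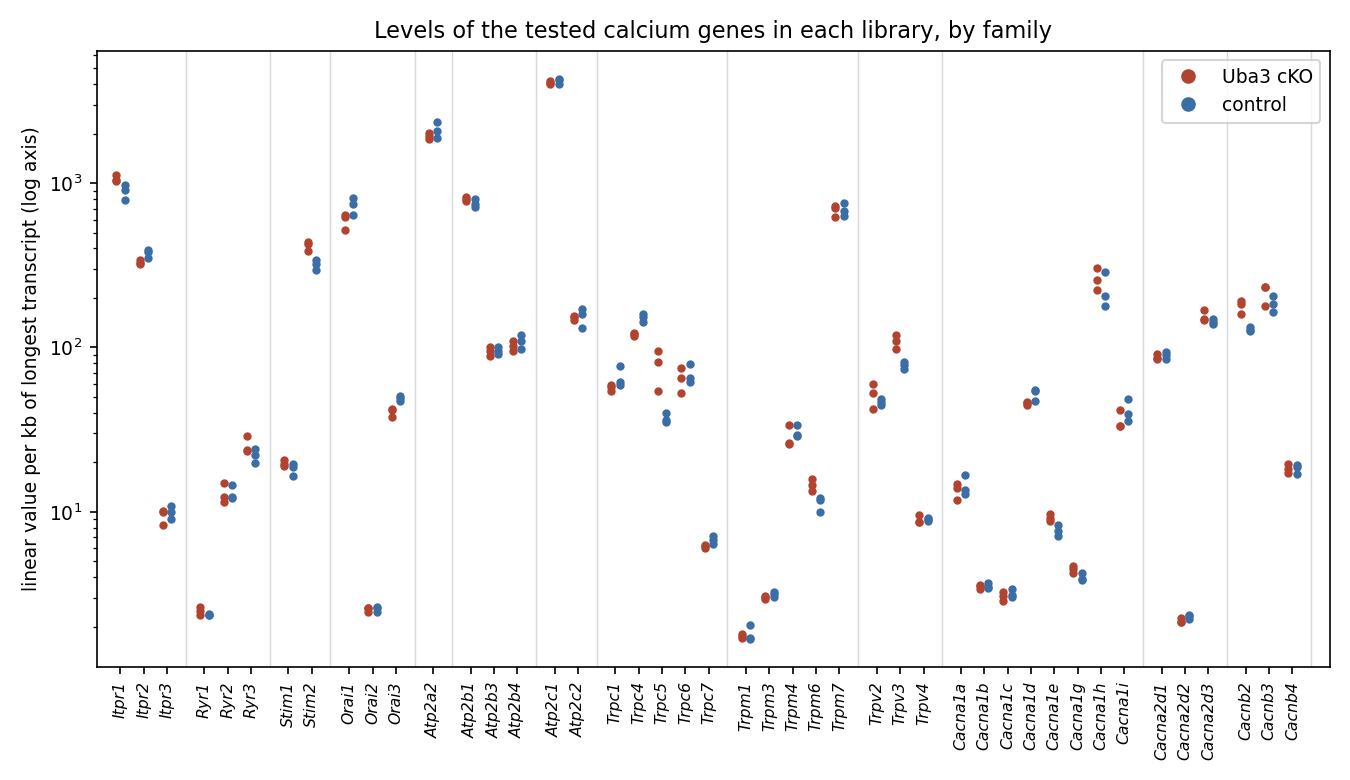
Linear value (the log2 scale undone) per kb of the longest transcript, on a log axis, for 44 of the 45 tested calcium genes, with 1 point per library (Uba3 cKO left, control right) and families separated by lines. Atp2c1, Atp2a2 and Itpr1 stand highest in both groups, and 1 member leads by far in the STIM, ORAI, SPCA and TRPM families.

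None of the IP3 receptor or ryanodine receptor genes, whose proteins release calcium from the ER, was called. Itpr1, the IP3 receptor that serves the calcium waves of mouse eggs, had 13.44, 13.32 and 13.34 in Uba3 cKO replicates 1, 2 and 3, against 13.23, 12.93 and 13.12 in control (log2 difference 0.27, SE 0.09, adjusted p = 0.0844 in limma). Itpr2, a second form, had 11.95, 11.87 and 11.89 in Uba3 cKO and 12.00, 12.12 and 12.16 in control libraries (-0.19, SE 0.09, adjusted p = 0.205). The groups of both genes did not overlap, with Itpr1 higher and Itpr2 lower in Uba3 cKO, but neither passed the test. Itpr1 was called under sample weights (0.29, adjusted p = 0.0265) and without control replicate 1 (0.34, adjusted p = 0.0308), and over 17 alternatives its adjusted p ran from 0.0265 to 0.279. Itpr3 differed by -0.07 (95% interval -0.29 to 0.15). Of the summed per-kb level of the 3 receptors, Itpr1 made up 76.4%, 75.8% and 75.9% in the Uba3 cKO libraries and 72.9%, 67.0% and 69.3% in the control libraries. Itpr2 made up 23.3% ± 0.3 (SD, n = 3) in Uba3 cKO and 29.5% ± 3.0 (SD, n = 3) in control, and Itpr3 under 1% in both.

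The ryanodine receptors, calcium-gated release channels best known from muscle and neurons, stood far below Itpr1. By the longest transcript, Ryr3 was the highest of them at 25.4 per kb in Uba3 cKO and 22.1 per kb in control oocytes. Ryr1 stood at 2.49 and 2.37 per kb, while Ryr2 averaged 12.9 per kb over all libraries. With the mean transcript length, Ryr3 and Ryr2 were level, at 52.2 and 52.1 per kb over all libraries. Ryr3 had log2 values of 8.51, 8.52 and 8.80 in Uba3 cKO and 8.54, 8.43 and 8.26 in control libraries, and its difference was 0.20 (95% interval -0.05 to 0.45). For Ryr1 the interval ran from -0.07 to 0.21 and for Ryr2 from -0.26 to 0.25. Exons of Ryr3 overlap those of Aven on the other strand, and the strand setting of the authors' counting is unknown here.

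Of the 2 store sensors, 1 was called. Stim2 (ENSMUSG00000039156, chromosome 5), an ER membrane protein that senses small drops of calcium in the store, rose in Uba3 cKO oocytes. It had 11.04, 10.89 and 11.07 in Uba3 cKO replicates 1, 2 and 3, against 10.51, 10.64 and 10.71 in control. Every Uba3 cKO library was above every control library. The log2 difference was 0.38 (SE 0.10, 95% interval 0.17 to 0.59, adjusted p = 0.0307 in limma), a 1.30-fold change. Stim1, the sensor that opens ORAI channels when the store is emptied, had 6.41, 6.50 and 6.38 in Uba3 cKO and 6.41, 6.18 and 6.36 in control libraries, a difference of 0.11 (95% interval -0.08 to 0.31). Stim2 made up 95.4% ± 0.5 of the summed STIM level per kb in Uba3 cKO and 94.6% ± 0.7 in control oocytes (SD, n = 3 each). The call of Stim2 ended without Uba3 cKO replicate 1 or 3 or any single control library, with adjusted p up to 0.121.

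The ORAI genes, which encode the pore that STIM proteins open, had differences below 0 and none was called. Orai1, the main form, had 10.22, 9.92 and 10.18 in Uba3 cKO and 10.22, 10.58 and 10.44 in control libraries (log2 difference -0.31, SE 0.12, adjusted p = 0.135 in limma). Its groups met at a single pair, Uba3 cKO replicate 1 and control replicate 1. Without control replicate 1 the difference was -0.40 and was called (adjusted p = 0.0422, against up to 0.371 in other settings). Gm2479, whose exons overlap those of Orai1 on the other strand, differed by -0.18 (adjusted p = 0.384), and without a known strand setting reads of their shared part cannot be told apart. Orai3 had 6.33, 6.47 and 6.50 in Uba3 cKO libraries, all below the control values of 6.65, 6.76 and 6.72 (-0.27, SE 0.09, adjusted p = 0.0792), and it was called under sample weights (-0.31, adjusted p = 0.0229, against up to 0.278 in other settings). Orai2 stood at the filter level, with a difference of -0.0051 (95% interval -0.09 to 0.08).

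None of the 6 tested pumps, which clear calcium from the cytosol, was called. Atp2a2 had 13.49, 13.43 and 13.37 in Uba3 cKO and 13.71, 13.38 and 13.52 in control libraries, with a 95% interval of -0.31 to 0.09 for the log2 difference. Atp2c1 had 14.53, 14.48 and 14.46 in Uba3 cKO and 14.47, 14.57 and 14.54 in control libraries (interval -0.19 to 0.11). For Atp2c2, the second Golgi pump, the interval was -0.25 to 0.24. Among the plasma membrane pumps the intervals were -0.08 to 0.28 for Atp2b1, -0.22 to 0.20 for Atp2b3 and -0.31 to 0.13 for Atp2b4. A change of 0.47 or more, the size seen in Cacnb2, lay outside the interval of every one of these pumps. Atp2b1 made up 80.2% ± 0.9 of the summed plasma membrane pump level per kb in Uba3 cKO and 78.5% ± 0.4 in control oocytes (SD, n = 3 each), and Atp2a2 made up 99.9% of the SERCA level in both.

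TRPC channels, nonselective cation channels opened downstream of phospholipase C, gave the largest rise and the 1 fall among the members. Trpc5 (ENSMUSG00000041710, chromosome X) had 8.41, 7.82 and 8.63 in Uba3 cKO replicates 1, 2 and 3, against 7.20, 7.37 and 7.24 in control. Its lowest Uba3 cKO library was above its highest control library, and Uba3 cKO replicate 2 stood apart from the other two. The log2 difference was 1.01 (SE 0.16, 95% interval 0.67 to 1.36, adjusted p = 0.0018 in limma), a 2.02-fold change. Leaving out single libraries moved the difference between 0.84 and 1.25, and Trpc5 was called each time. Over 17 alternatives in all, its adjusted p ran from 2.67e-05 to 0.0178.

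Trpc4 (ENSMUSG00000027748, chromosome 3), the closest relative of Trpc5, moved the other way. It had 8.67, 8.73 and 8.71 in Uba3 cKO libraries and 8.96, 9.12 and 9.05 in control libraries, with no overlap. The log2 difference was -0.34 (SE 0.10, 95% interval -0.55 to -0.13, adjusted p = 0.0467), a 1.27-fold lower level in Uba3 cKO. This call lay close to the threshold and ended without any single library other than control replicate 1, with adjusted p up to 0.156. It also ended with no level filter (0.0794). The theca, stroma and luteal marker sum was also lower, at 11.42 to 11.77 in Uba3 cKO and 11.91 to 12.55 in control libraries. Of its 15 markers 7 were called lower, against 2.5% of all tested genes. The oocyte sum was lower too (18.59 to 18.73 in Uba3 cKO, 18.76 to 18.97 in control), as was the blood and immune sum (9.09 to 9.21 and 9.21 to 9.46). The granulosa and endothelial sums overlapped between groups. Each sum is weighted towards the highest genes of its list and does not give the amount of a cell type. Whether any of these sums bears on the level of Trpc4 was not tested. Per kb, Trpc5 reached 0.695, 0.443 and 0.792 of the Trpc4 level in Uba3 cKO libraries, against 0.247, 0.250 and 0.237 in control libraries. Trpc5 made up 21.1% ± 5.2 of the summed TRPC level per kb in Uba3 cKO and 10.3% ± 0.2 in control oocytes (SD, n = 3 each), and Trpc4 33.0% ± 1.5 in Uba3 cKO and 42.1% ± 1.9 in control.

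Trpc1, Trpc6 and Trpc7 were not called. Trpc1, which had 8.07, 7.95 and 8.04 in Uba3 cKO and 8.08, 8.46 and 8.13 in control libraries, differed by -0.20 (95% interval -0.45 to 0.04). Trpc6 differed by -0.10 and Trpc7, near the low end of the range, by -0.12.

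**Figure D2:**
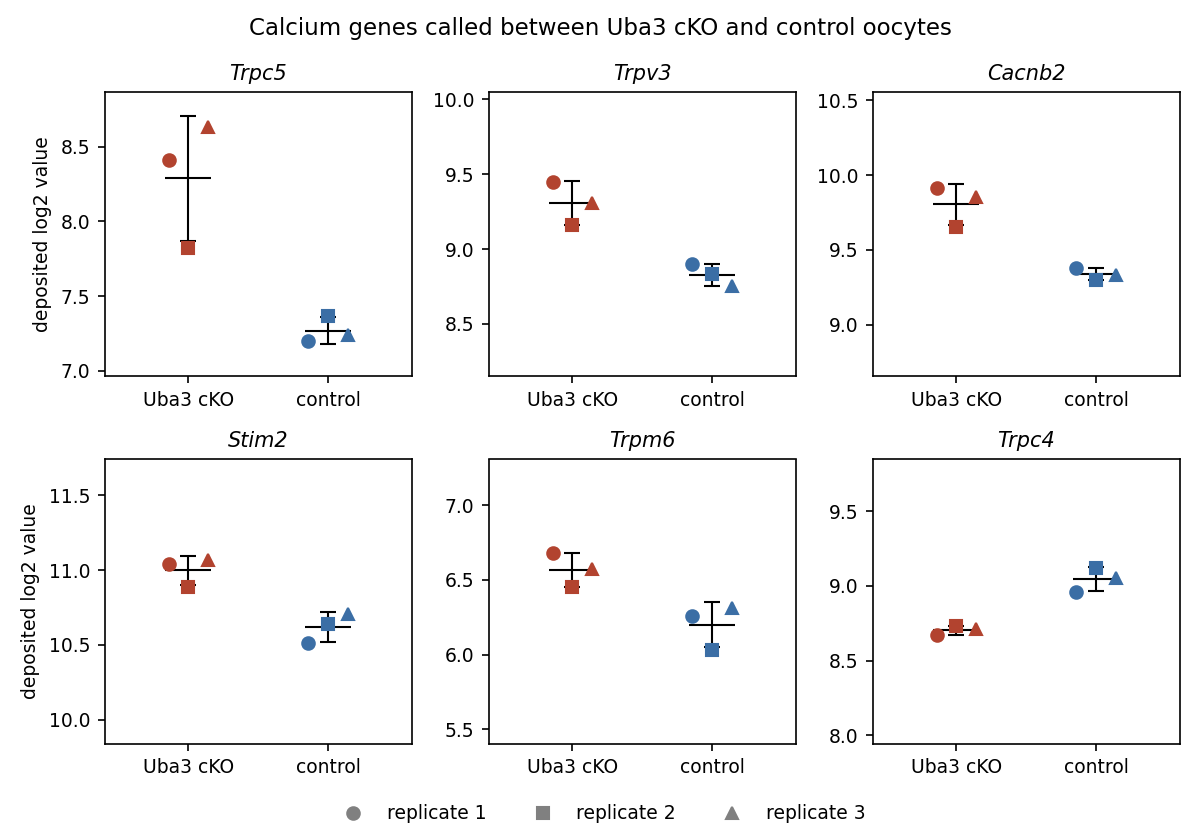
Deposited log2 values of the 6 called calcium genes in each library, Uba3 cKO left and control right, with the mean (bar) and SD (whiskers) of the 3 libraries of a group and marker shapes for the replicate number. All panels span the same range of log2 units. Trpc5, Trpv3, Cacnb2, Stim2 and Trpm6 are higher and Trpc4 is lower in every Uba3 cKO library.

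Of the TRPM channels, Trpm6 rose and the far more abundant Trpm7 was not called. Trpm6 (ENSMUSG00000024727, chromosome 19), a magnesium-permeable channel kinase best known from kidney and intestine, had 6.68, 6.45 and 6.57 in Uba3 cKO and 6.26, 6.03 and 6.31 in control libraries, without overlap. The log2 difference was 0.37 (SE 0.10, 95% interval 0.15 to 0.58, adjusted p = 0.0377 in limma). Its call ended without Uba3 cKO replicate 1 or 3 or control replicate 2 or 3 (adjusted p up to 0.167), and also under quantile normalization (0.0505), with no intensity trend (0.0598) and after the length and GC correction (0.0713).

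Trpm7, the related channel kinase that carries calcium and magnesium into mouse eggs, had 12.11, 12.33 and 12.30 in Uba3 cKO and 12.39, 12.23 and 12.12 in control libraries. Its difference was -0.0024 with a 95% interval of -0.21 to 0.21. Trpm7 made up 92.9% ± 0.5 of the summed TRPM level per kb in Uba3 cKO and 93.0% ± 1.0 in control oocytes (SD, n = 3 each). The share of Trpm6 was 2.34%, 1.73% and 1.92% in the Uba3 cKO libraries and 1.46%, 1.38% and 1.79% in the control libraries, so that the shares overlapped. Trpm4, a channel for monovalent cations that calcium opens, differed by -0.11 (interval -0.36 to 0.13).

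Among the TRPV channels, Trpv3 (ENSMUSG00000043029, chromosome 11) rose. This channel, which warmth opens in skin keratinocytes, had 9.45, 9.16 and 9.31 in Uba3 cKO replicates 1, 2 and 3, against 8.90, 8.83 and 8.75 in control. The groups were well apart, since the lowest Uba3 cKO value exceeded the highest control value. The log2 difference was 0.48 (SE 0.11, 95% interval 0.25 to 0.71, adjusted p = 0.0141 in limma), a 1.39-fold change. The call ended without Uba3 cKO replicate 1 or 3 or control replicate 3 (adjusted p up to 0.0824). Trpv1, a heat and capsaicin receptor of sensory neurons on the same chromosome, 11, stayed at 0.48 to 0.51 in all libraries. Trpv2 differed by 0.13 (interval -0.13 to 0.40). Trpv3 made up 63.6% ± 1.2 of the summed TRPV level per kb in Uba3 cKO and 57.4% ± 2.2 in control oocytes (SD, n = 3 each). These shares rest on the longest transcript. With the mean transcript length, Trpv3 and Trpv2 stood close, at 93.3 and 84.1 per kb over all libraries.

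None of the 8 tested alpha1 subunits, which form the pore of voltage-gated calcium channels, was called. Cacna1h had 11.30, 11.04 and 10.84 in Uba3 cKO and 11.20, 10.53 and 10.73 in control libraries, the widest spread within groups of any alpha1 gene. Its difference of 0.24 had a 95% interval of -0.09 to 0.57 (adjusted p = 0.377 in limma), and it was called without control replicate 1 (0.43, adjusted p = 0.0481). Without control replicate 2 the difference was 0.10 and without Uba3 cKO replicate 1 it was 0.12, and the adjusted p reached 0.791 at most. Cacna1d, the pore of an L-type channel, had 8.81, 8.80 and 8.76 in Uba3 cKO and 9.06, 8.83 and 9.03 in control libraries (-0.18, adjusted p = 0.311). Cacna1e, the pore of the R-type channel, had 7.04, 7.18 and 7.10 in Uba3 cKO and 6.74, 6.84 and 6.95 in control libraries (0.27, SE 0.10, adjusted p = 0.109). The groups of Cacna1d and Cacna1e did not overlap. Exons of Chdh, which averaged 11.48 in Uba3 cKO and 11.4 in control libraries, overlap those of Cacna1d on the other strand. Without a known strand setting, reads of the part shared by Cacna1d and Chdh cannot be told apart. Cacna1h made up 68.8% ± 2.8 of the summed alpha1 level per kb in Uba3 cKO and 63.1% ± 4.0 in control oocytes (SD, n = 3 each).

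The accessory subunits differed in that a beta subunit rose and no alpha2delta subunit was called. Beta subunits bind the pore inside the cell and bring it to the membrane, and alpha2delta subunits do so from outside. Cacnb2 (ENSMUSG00000057914, chromosome 2) had 9.91, 9.65 and 9.85 in Uba3 cKO replicates 1, 2 and 3, against 9.38, 9.30 and 9.33 in control, so that the groups were separate. The log2 difference was 0.47 (SE 0.10, 95% interval 0.25 to 0.68, adjusted p = 0.0127 in limma), a 1.38-fold change, and the call ended without Uba3 cKO replicate 1 or 3 or control replicate 3 (adjusted p up to 0.0749).

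Gm13269, annotated on the other strand with exons that overlap those of Cacnb2, fell. It had 7.19, 7.24 and 7.23 in Uba3 cKO and 7.41, 7.92 and 7.69 in control libraries (-0.45, SE 0.12, adjusted p = 0.0353). Without a known strand setting, reads of these 2 genes in their shared part cannot be told apart. Cacnb3 had 9.31, 8.93 and 9.32 in Uba3 cKO and 8.81, 8.97 and 9.14 in control libraries (0.21, 95% interval -0.06 to 0.48), and Cacnb4 differed by -0.00038 (interval -0.21 to 0.21). For the alpha2delta subunits the intervals were -0.25 to 0.17 for Cacna2d1, -0.16 to 0.01 for Cacna2d2 and -0.10 to 0.33 for Cacna2d3. Of the 45 tested members, 16 have exons that overlap another annotated gene.

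**Figure D3:**
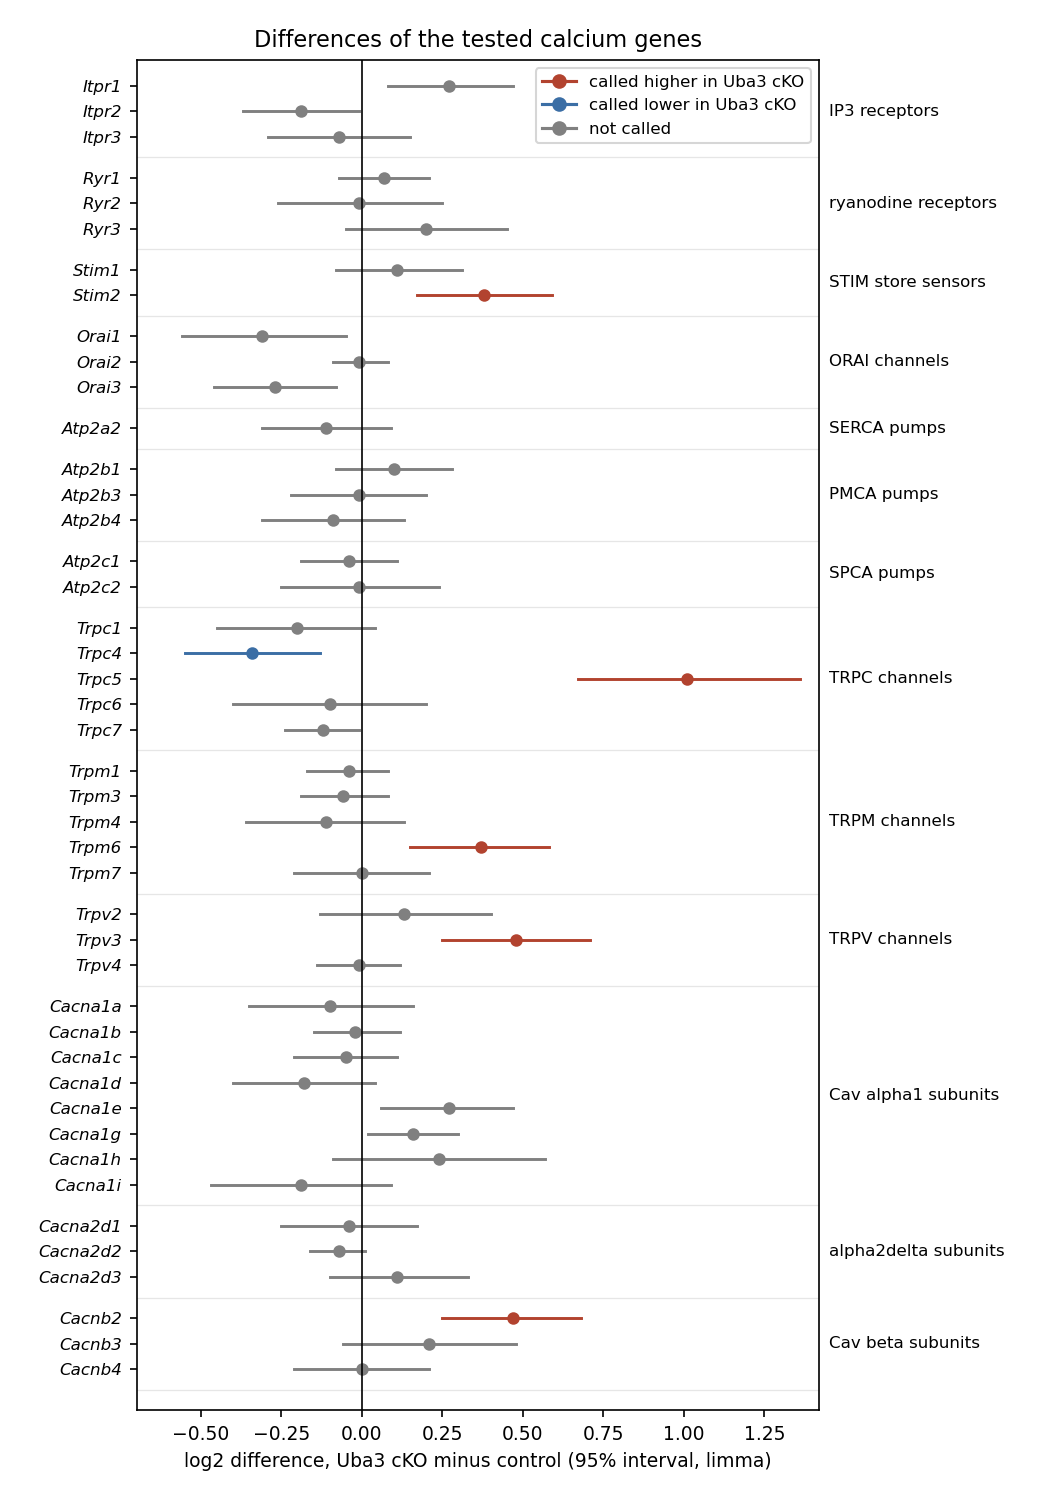
Log2 difference (Uba3 cKO minus control) with its 95% interval from limma for 44 of the 45 tested calcium genes, grouped by family, with called genes in colour. Trpc5 lies far to the right at 1.01, and the intervals of the pumps and of Trpm7 cross 0.

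Another 5 lists of calcium genes, chosen with earlier results of these data known, held few called genes. Their share called is read against the 8.14% of all tested genes. Of 13 tested genes for mitochondrial calcium uptake and release none was called (median log2 difference -0.11), and Vdac3, an outer membrane channel and the highest of them, differed by -0.05 (95% interval -0.24 to 0.15). Of 17 tested exchangers and endolysosomal and other channels none was called (median 0.04), and the highest, Pkd2l2, a polycystin family gene, differed by -0.16 (interval -0.35 to 0.02). Of 24 tested regulators of stores and channels none was called (median 0.08), and the highest, Tmbim6, an ER membrane protein, differed by -0.11 (interval -0.30 to 0.08).

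ER calcium-binding proteins and calcium effectors held 3 called genes between them. Hspa5, the ER chaperone BiP, which also binds calcium in the store, had 12.95, 13.28 and 13.15 in Uba3 cKO and 13.71, 13.48 and 13.42 in control libraries, and it fell (-0.41, SE 0.10, adjusted p = 0.0249 in limma). The other 16 tested ER proteins were not called, and the list's median was -0.05. Among 27 tested calmodulin and effector genes (median -0.03), Prkcb, a calcium-dependent protein kinase C, rose. It had 7.45, 7.48 and 7.56 in Uba3 cKO and 6.82, 6.95 and 7.10 in control libraries (0.54, SE 0.10, adjusted p = 0.00521), and was called with each library left out. Ppp3ca, a catalytic subunit of calcineurin, had 9.92, 10.12 and 10.10 in Uba3 cKO and 9.64, 9.68 and 9.78 in control libraries and rose (0.35, SE 0.10, adjusted p = 0.0479). The call of Ppp3ca ended with each library left out (0.153 at most), and likewise under median centring (0.0552), quantile normalization (0.0705), sample weights (0.0679), no filter (0.085) and the length and GC correction (0.0722). That of Hspa5 ended without Uba3 cKO replicate 1 or 3 or control replicate 1 (adjusted p up to 0.135) and with no intensity trend (0.0608).

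Leaving out single libraries changed how many members were called. Called higher were 1 to 7 of the members and called lower 0 to 2, while over all genes the number called ran between 618 and 1637. Trpc5 was the one called member without Uba3 cKO replicate 1, without Uba3 cKO replicate 3 and without control replicate 3. That was 2.22% of the members each time, below the 3.9%, 4.06% and 3.54% of all genes called in these fits. The share of members was 11.1% against 7.35% of all genes without Uba3 cKO replicate 2. It was 6.67% against 4.47% without control replicate 2. Without control replicate 1, 9 of the 45 members were called, where 9.38% of all genes were, and Stim2 was not among them.

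**Figure D4:**
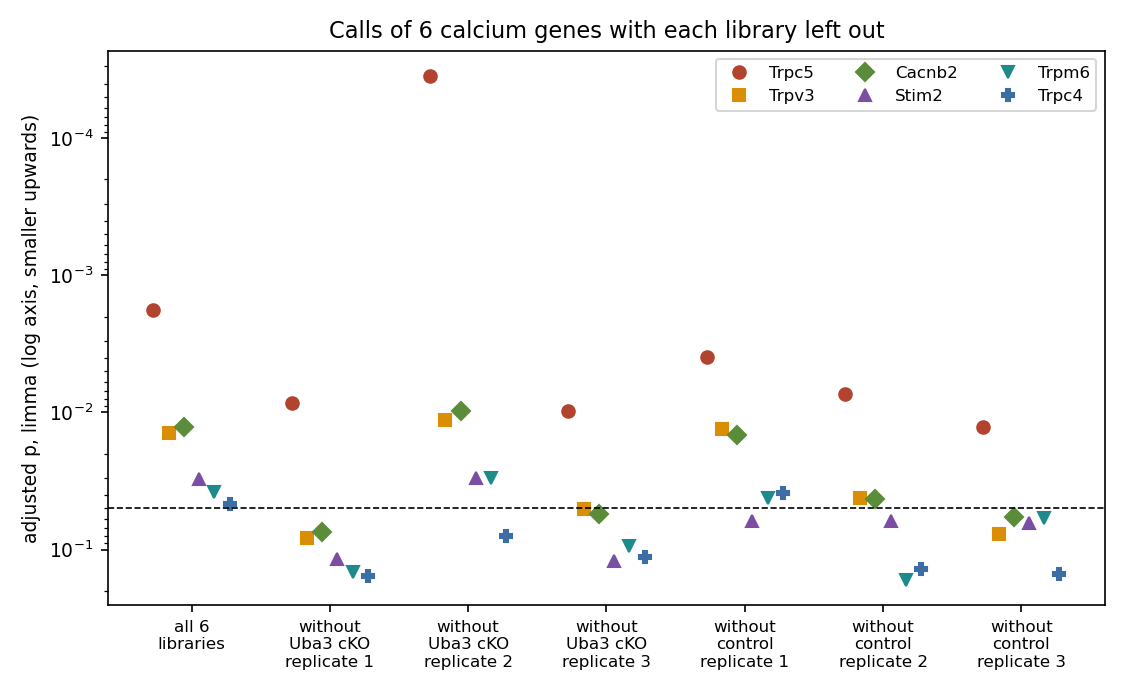
Adjusted p in limma (log axis, smaller values upwards) of the 6 called calcium genes with all 6 libraries and with each library left out, and the threshold of 0.05 as a dashed line. Trpc5 lies above the line in every column, at 0.0128 or less, and the other 5 genes cross it.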

How the data were processed

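RNA sequencing libraries were made from 6 oocyte pools with the PicoPure and Illumina TruSeq RNA kits and run on a NovaSeq, per the labels' protocols. The tools fastp, STAR, featureCounts and DESeq2 and the build GRCm39 are listed in the submitters' processing notes, with no versions or settings for strand or multi-mapped reads. The authors deposited log2 values, normalized between libraries, from 0.0363 to 18.01 with no exact 0. The transform is not named; if it is a regularized logarithm, differences of low genes are shrunken. No depth or counting interval can be given.

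Symbols (27660 of 28738 rows), strands, overlaps and transcript lengths came from GENCODE M21, of an earlier build, and promoter windows from RefSeq GRCm38.p6. Genes with a linear value of 10 or more in at least 3 libraries (17450) entered limma (version 3.58.1, R 4.3.3, moderated with an intensity trend), and a gene was called where the p adjusted over all of them by Benjamini-Hochberg was under 0.05. Intervals are 95% limma intervals. The fit was tested on simulated data. Whether pools came from different animals is not labelled, so each p rests on spread between the pools of a group, which may be technical. Through the moderation, the spread used for a gene is drawn partly from other genes of similar level.

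Named were all called members, the highest genes of each subfamily (up to 2, or all in subfamilies of 4 or fewer), the 5 largest uncalled differences, the called and highest genes of each list, and Uba3; others were named after their values were seen, and 2 genes that this rule covers are not reported here. Members, lists and rules were chosen with earlier results of these data known. Of 130 list entries, 121 were matched. Alternatives covered pseudocounts of 1 and 5, the filter, scaling, variance model, sample weights, a replicate block, leaving out libraries and transcript length; the length and GC correction was chosen after seeing the data.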

Additional observations from a re-analysis of the deposited data

How the results depend on the processing

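The numbers of called members were 5 higher and 1 lower, and 1421 of all genes were called. With sample weights 2298 of all genes were called, and 6 members higher and 2 lower. The share of members was 17.8% against 13.2% of all genes in that setting. No member was called lower with no filter (0), with the replicate block (0) or with the length and GC correction together with the replicate block (0), and that last setting left 3 higher. Those 3 were 6.67% of the members, near the 6.49% of all genes called in that setting. The share of members was 8.62% against 4.45% of all genes with no filter, and 11.1% against 7.21% with the replicate block. Pseudocounts of 1 and 5, the stricter filter and median centring left the counts of members at 5 and 1. Leaving out 1 library gave 618 to 1637 called genes, 1 to 7 members higher and 0 to 2 lower. The cause of these moves was not tested. Fits that left out a library held fewer libraries, and the fit with no filter tested more genes. The highest level per kb, that of Atp2c1, was 4140 over all libraries with the longest transcript and 12800 with the mean transcript length. After the length and GC correction the median difference of the members was -0.07, against -0.01 for all genes. The longest transcript had a median of 5807 nt among the tested members and 3055 nt among all tested genes. No named gene changed sign where it was called.

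The values gave no sign that replicate numbers pair the libraries. Deviations from the group means correlated at -0.085, -0.198 and -0.054 for numbers 1, 2 and 3, and no library correlated best with its own number. The highest values were 0.194 for Uba3 cKO replicate 1 with control replicate 3, 0.277 for 2 with 1, and 0.249 for 3 with 2. Deviations from a mean of 3 libraries are tied to each other, so these correlations cannot show whether pools of equal number were prepared together. The replicate block used the numbers as labelled. With the replicate block 1258 genes were called, 5 members higher and 0 lower, and the calls of Trpc4 (adjusted p = 0.0885) and Ppp3ca (0.0772) ended. With the block and the length and GC correction together, those of Stim2 (0.0805), Trpm6 (0.0768), Trpc4 (0.0563) and Ppp3ca (0.109) ended. Groups of 3 are too small for a test of outlying samples. Depth is unknown, and spread between 3 libraries limits what could be called.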
